A study of Mus musculus with 8 samples.

Results

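The 7 mouse genes described here are the tumour suppressors Trp53, Rb1, Cdkn2a and Atrx and the genes Mdm2, Myc and Runx2, which are amplified or overexpressed in osteosarcoma, a cancer of bone-forming cells. They were taken by symbol from a table of 52016 genes, 31300 of mouse and 20716 of dog, and each symbol matched 1 mouse row. The RNA sequenced came from serum exosomes, small vesicles shed by cells, of athymic NCr nu/nu mice, which lack mature T cells. The 8 libraries form 4 groups of 2: pooled serum from all mice before injection (week 0), and pooled serum at week 8 from mice given 10 µl of PBS into the tibia, or 100000 OSCA-32 or OSCA-40 cells, which are canine osteosarcoma lines. Because serum was pooled and nothing states that paired libraries hold different animals, each p-value reflects library-to-library spread alone, and this spread may be technical.

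The 7 genes belong to connected pathways. The p53 protein, encoded by Trp53, halts the cell cycle or triggers cell death after DNA damage, and MDM2 marks it for degradation, while ARF, a product of Cdkn2a, holds MDM2 back. The second product of Cdkn2a, p16INK4a, inhibits the cyclin D kinases that inactivate the RB protein, and RB in turn restrains E2F factors and cell cycle entry. MYC is a growth-promoting transcription factor, ATRX deposits histone H3.3 at telomeres and its loss accompanies alternative lengthening of telomeres, and RUNX2 is the master transcription factor of osteoblasts.

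The deposited values are whole numbers that behave as length-corrected shares (TPM) over both species: every library sums to between 977106 and 989183, and the sequencing depth is unknown. Mouse genes held 82.6% to 85.3% of the tumour-free libraries, 55.3% and 56.7% of the OSCA-32 libraries and 31.6% and 29.3% of the OSCA-40 libraries. The median of the 21474 protein-coding mouse genes listed was 5 in each tumour-free library, 3 in both OSCA-32 libraries and 2 and 1 in the OSCA-40 libraries. Of these genes, 91.0% were at 1 or more in all 4 tumour-free libraries, so being listed does not set a gene apart. For tests, libraries were scaled so that most genes match between them, and a difference is in log2(scaled value + 1), so the change of a low gene is understated. Of 14 vesicle component genes, the median value was 8.0 to 10.5 in tumour-free libraries, 7.0 and 5.0 with OSCA-32 and 2.0 and 2.5 for OSCA-40. With OSCA-40, 3 of 4 tested platelet genes, 3 of 4 tested hepatocyte genes and 1 of 7 tested erythroid genes were called higher than PBS. Of all tested mouse genes 2.93% were called higher and 2.31% lower, and 1 of 7 tested vesicle genes was called lower. That gene was Cd9, at 208 and 192 with PBS and 29 and 26 with OSCA-40 (-1.20, SE 0.106, limma adjusted p = 0.000738). Cd9 was also called lower between the lines (-0.94, SE 0.106, limma adjusted p = 0.00567). The erythroid gene called was Hba-a2, at 184 and 189 with PBS and 194 and 196 with OSCA-40. Cd82 (16 and 24, 3 and 3) and Hbb-bs (62 and 49, 27 and 23) were not called. The platelet and hepatocyte shares cannot be set against 2.93%, because Ppbp reached 10 with OSCA-32 alone (14 and 10) and Fabp1 passed the filter only with tumour libraries counted. As deposited, Ppbp (9 and 8 with OSCA-40, 7 and 9 with PBS) and Alb (11 and 11, 7 and 13) overlapped PBS, and Trf was lower (13 and 11, 21 and 22). Summed over 10 platelet genes, the deposited values were 118 and 112 at week 0, 150 and 128 with PBS, 183 and 152 with OSCA-32, and 213 and 188 for OSCA-40. Most of each OSCA-40 sum came from Pf4 (85 and 69, against 39 and 30 with PBS) and Tmsb4x (95 and 88, against 43 and 42), while the list median went the other way, from 7.0 and 7.0 with PBS to 3.5 and 4.0. Over 10 hepatocyte genes the sums were 67 to 83 in all 8 libraries, and none of either list was at 0 in an OSCA-40 library. The part of such RNA in the values below was not tested. Also not tested was whether reads from the canine graft were assigned to the mouse genes.

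Each member could be told apart from other annotated mouse genes over most of its sequence. The share of a gene's distinct 31-base words that no other gene's transcripts hold on either strand was 100% for Myc and Cdkn2a, 99.7% for Atrx, 98.0% for Mdm2, 93.6% for Runx2, 89.8% for Trp53 and 86.8% for Rb1. Rb1 shared no word on its own strand, but 13.2% of its words lay opposite to Rcbtb2 and Lpar6, which are transcribed from the other strand of the same region. Runx2 shared 5.47% of its words with the antisense gene Runx2os1. For Trp53 the largest overlap, 8.79% of its words, was with its pseudogene Trp53-ps. For Mdm2, 100 of 5187 words occur in 2246 other genes on the same strand, and 63 of them, in a transcript with a retained intron, are shared with Utp11. These stretches are shown because a read that lies within them matches both genes. Capitals mark the run shared with the other gene, and the lower case letters are 20 bases of flank on either side, from GENCODE mouse release M21 transcripts on GRCm38.
Trp53, bases 1143 to 1288 of a transcript coding from 167 to 1330, across an intron within chr11:69590657-69591389, plus strand, run of 106 bases shared with Trp53-ps: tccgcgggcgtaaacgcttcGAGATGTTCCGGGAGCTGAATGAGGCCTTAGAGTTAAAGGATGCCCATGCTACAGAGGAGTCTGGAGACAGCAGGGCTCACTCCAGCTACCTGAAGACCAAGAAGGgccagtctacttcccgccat
Mdm2, retained-intron transcript, chr10:117695584-117695716, minus strand, run of 93 bases shared with Utp11: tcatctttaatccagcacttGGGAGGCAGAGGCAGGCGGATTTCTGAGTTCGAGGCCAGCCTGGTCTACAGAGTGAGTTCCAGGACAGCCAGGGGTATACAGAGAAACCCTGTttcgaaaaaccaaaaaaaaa
The Trp53 run is 1 of 16 runs of at least 31 bases shared with the pseudogene, 845 bases in all. The Mdm2 run reads as a B1 element, a common mouse repeat. The value of Utp11, a ribosome biogenesis gene, was 10 to 13 in tumour-free libraries and 4 and 5 with OSCA-40.

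The 7 genes differed widely in level. Atrx was the highest in each library and Myc was the lowest or tied for the lowest in 7 of the 8. Counted per library, 4 to 7 of the 7 members stood above the median protein-coding gene in tumour-free libraries, 4 and 5 with OSCA-32, and 3 in each OSCA-40 library. Atrx and Runx2 were above it in all 8 libraries, Rb1 in 7 and Mdm2 in the 6 outside OSCA-40. Trp53 was above it in the 4 tumour-free libraries and in 1 OSCA-32 library, Cdkn2a in 1 week 0 and 1 PBS library, and Myc in 1 PBS library.

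**Figure D1:**
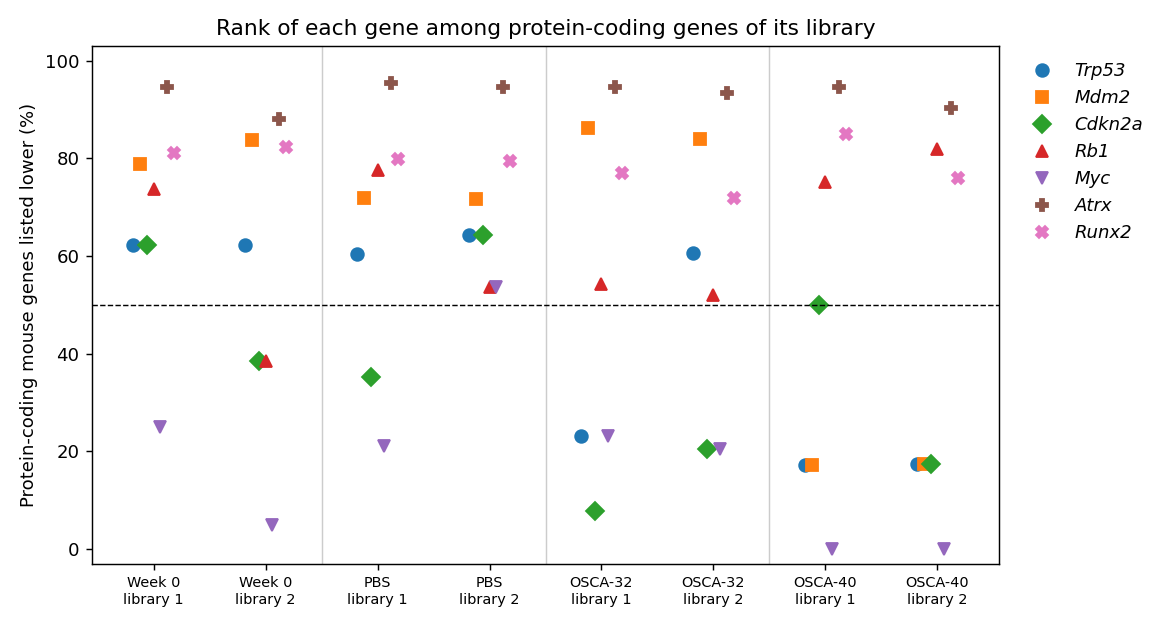
Percent of protein-coding mouse genes listed lower than each member (vertical axis) in each of the 8 libraries (horizontal axis); the dashed line marks 50% and each symbol is 1 gene in 1 library. Atrx stays between 88.0% and 95.5%, while Mdm2 goes from between 71.8% and 86.2% outside OSCA-40 to 17.2% and 17.5% with OSCA-40. Tied genes are not counted as lower, and Mdm2 was tied with 32.7% and 33.1% of genes in the OSCA-40 libraries.

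Mdm2 (ENSMUSG00000020184, GRCm38 chromosome 10, 117688875 to 117710758, minus strand), the ubiquitin ligase that degrades p53, gave the clearest difference among the members. Its deposited values were 12 and 15 at week 0, 10 and 10 with PBS, 12 and 11 with OSCA-32, and 1 and 1 for OSCA-40. Both OSCA-40 libraries lay far below the other 6, which overlapped between week 0 and OSCA-32. In rank, 71.8% to 86.2% of protein-coding genes were listed lower than Mdm2 in those 6 libraries, and 17.2% and 17.5% in the OSCA-40 libraries. These percentages leave out ties. At 1, Mdm2 was tied with 32.7% and 33.1% of protein-coding genes in the OSCA-40 libraries, and in the second of them it equalled the median gene. Among only the genes listed at 1 or more in an OSCA-40 library, a value of 1 is the lowest possible, and 0% were listed lower there. Relative to the bulk of genes, Mdm2 fell with OSCA-40 against PBS by 1.31 on the log2 scale (SE 0.275, limma adjusted p = 0.0335). Against OSCA-32 it fell by 2.01 (SE 0.275, limma adjusted p = 0.0134), with both OSCA-40 libraries below both OSCA-32 libraries. As deposited, the median tested mouse gene differed by -0.95 between the lines, and the share of genes separated in this way is not given here. Of the 4 members tested, Mdm2 was the 1 called in each of these comparisons, where 6.77% and 2.73% of all 7872 tested genes were called. Among tested mouse genes, 2.31% and 0.967% were called lower and 2.93% and 0.836% higher.

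The call against PBS was lost without each of the 8 libraries in turn (adjusted p from 0.0556 to 0.176, log2 difference from -1.33 to -1.29), with the replicate number as a block (0.0663), with only the groups compared (0.21) and with a pseudocount of 4 (0.0564). The call between the lines was lost without the first (0.0814) or second (0.0689) OSCA-32 library and with only those groups fitted (0.143). With whole-number values, a difference under 1 between libraries is not seen, and at a value of 1 the level itself is coarse.

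OSCA-32 did not share this difference: Mdm2 stood at 0.70 ± 0.275 (SE) relative to PBS, with a 95% interval from 0.05 to 1.35 and a limma adjusted p of 0.432. PBS against week 0 gave -0.42 ± 0.275 (limma adjusted p = 1). The 4 tumour libraries against the 4 tumour-free libraries gave -0.52 ± 0.195 (limma adjusted p = 0.202), a mean over lines that lie on opposite sides of PBS. No member was called in these 3 comparisons, where 1.09%, 0.165% and 6.07% of tested genes were. At an unadjusted p under 0.05 there were 1, 0 and 1, Mdm2 each time. The share of all genes at that unadjusted p is not given here, so such counts, also for the lists below, are description only. Tested mouse genes were called lower at 0.17%, 0.0653% and 1.8% and higher at 0.379%, 0.0523% and 2.89%. The comparisons share libraries, PBS above all, so their values are not independent.

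A count was made with cut-offs at the deposited values of Mdm2 itself, chosen after the values were seen, so it restates them and is no test. As deposited, the median tested mouse gene differed by -1.51 with OSCA-40 against PBS, and higher genes needed a larger fall to reach 1. Of the 2898 protein-coding genes at 10 or more in all 6 libraries outside OSCA-40, 5, or 0.173%, were at 1 or 0 in both OSCA-40 libraries. Mdm2 was among these. The others were Crat, a carnitine acetyltransferase, Rps12-ps3, 2510002D24Rik and Speer4c. Crat stood at 10 to 23 in the 6 libraries and at 1 and 1 with OSCA-40. By correlation over the 8 libraries among 6107 protein-coding genes with established symbols, the genes most like Mdm2 were Coa4 (Pearson's r = 0.98), a cytochrome oxidase assembly factor, Stoml3 (0.98) and Traf2 (0.97), a signalling adaptor of TNF receptors. All libraries share their scaling, 55 genes had an r above 0.9 with Mdm2, and the r values are given as a description. Coa4 stood at 52 to 55 in tumour-free libraries, at 42 and 42 with OSCA-32 and at 13 and 12 for OSCA-40.

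**Figure D2:**
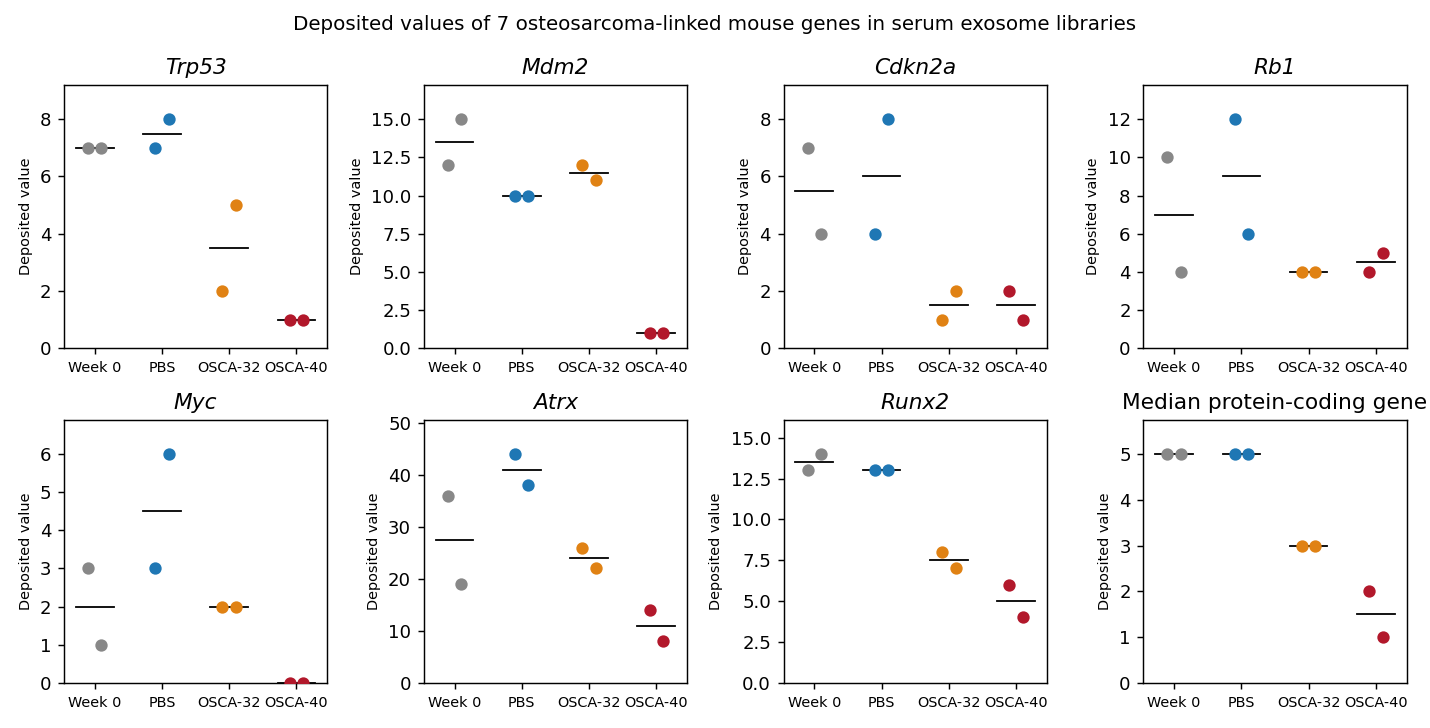
Deposited values (vertical axes, whole numbers that behave as TPM, each axis from 0) of the 7 members and of the median protein-coding mouse gene in the 4 groups; points are libraries and lines are means of 2. Mdm2 drops to 1 and 1 with OSCA-40 while OSCA-32 stays at 12 and 11, and Atrx, at 14 and 8 with OSCA-40, keeps above the median gene at 2 and 1.

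Trp53 (ENSMUSG00000059552, chromosome 11, 69580359 to 69591873, plus strand) was listed at 7 and 7 at week 0, at 7 and 8 with PBS, at 2 and 5 with OSCA-32 and at 1 and 1 for OSCA-40. The 4 tumour libraries were all below the 4 tumour-free libraries as deposited, as was the case for 29.6% of the 21173 protein-coding genes with any value, and after scaling they overlapped. In pooled serum, fewer vesicles with a transcript and less of it in each vesicle cannot be told apart. Trp53 reached 10 in no library and so fell outside the main test, which needed 10 in at least 2 libraries. With a minimum of 5, its difference from PBS was -0.98 ± 0.38 (SE) with OSCA-40 (limma adjusted p = 0.273) and -0.49 ± 0.38 with OSCA-32 (limma adjusted p = 0.818), so it passed in neither. PBS and week 0 differed by 0.02 ± 0.38.

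Cdkn2a (ENSMUSG00000044303, chromosome 4, 89274471 to 89294653, minus strand), which encodes p16INK4a and ARF, was low throughout. It was listed at 7 and 4 at week 0, at 4 and 8 with PBS, at 1 and 2 with OSCA-32 and at 2 and 1 for OSCA-40. As deposited, both tumour groups lay below both tumour-free groups, as was the case for 29.6% of the 21173 protein-coding genes with any value. The tumour groups overlapped each other, and after scaling tumour and tumour-free libraries overlapped. With a minimum of 5, Cdkn2a differed from PBS by -0.97 ± 0.49 (SE) with OSCA-32 (limma adjusted p = 0.678) and by -0.29 ± 0.49 with OSCA-40 (limma adjusted p = 0.815), and neither passed.

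Of the p53 network list, 9 of 28 genes entered the test. With OSCA-40 1 of the 9 was called higher and none lower, where 2.93% of tested mouse genes were called higher and 2.31% lower. The list median was 0.21 where that of all tested mouse genes was -0.04. With OSCA-32 none of the 9 was called by limma (1 at an unadjusted p under 0.05), with a list median of 0.08. The gene called was Atm, the kinase that signals DNA breaks to p53. Atm was listed at 13 and 13 at week 0, 5 and 7 with PBS, 8 and 9 with OSCA-32 and 7 and 6 for OSCA-40. As deposited, its OSCA-40 and PBS values overlapped; relative to the bulk of genes it rose by 1.56 ± 0.246 (SE, limma adjusted p = 0.0101). With library totals alone the difference was 0.11, and the call was lost without the first PBS library (adjusted p = 0.0693) and with only the groups compared (0.0772). Week 0 was above all the other groups for Atm as deposited. PBS against week 0 gave -1.01 ± 0.246, which did not pass (limma adjusted p = 0.524). Atm entered the test through the week 0 libraries alone, the group where it was highest, so nothing is drawn from that height. Its PBS and OSCA-40 values, on which the call rests, were too low to enter the test by themselves.

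The highest genes of that list were Chek2, a checkpoint kinase, at 3160 to 3783 in tumour-free libraries and 1040 and 1175 with OSCA-40, and Atr, the kinase of replication stress, at 61 to 67 and at 27 and 20. Neither differed from PBS with OSCA-40 beyond the test (-0.06 ± 0.088 and 0.19 ± 0.152). Whether a value as high as that of Chek2 comes from its mRNA was not tested. A pair of direct partners was looked up after values were seen. Mdm4, a relative of Mdm2 that also restrains p53, was listed at 18 and 26 with PBS and at 6 and 11 with OSCA-40, where Mdm2 was at 1 and 1. Relative to the bulk of genes, Mdm4 differed from PBS by 0.23 with OSCA-40 and 0.04 with OSCA-32, and it was not called. Cdkn1a, the p53 target that encodes the kinase inhibitor p21, was listed at 8 and 7 with PBS, 0 and 3 with OSCA-32 and 3 and 2 for OSCA-40, and was too low for the main test.

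Rb1 (ENSMUSG00000022105, chromosome 14, 73183673 to 73325822, minus strand) differed between the tumour-free libraries of a group. Its values were 10 and 4 at week 0, 12 and 6 with PBS, 4 and 4 with OSCA-32 and 4 and 5 for OSCA-40. As deposited, both PBS libraries were above all 4 tumour libraries, and week 0 overlapped the tumour libraries. The median tested mouse gene as deposited differed from PBS by -0.55 with OSCA-32 and -1.51 with OSCA-40. The share of genes in that order is not given here. Rb1 entered the test through 1 week 0 and 1 PBS library alone. Its differences were -0.43 ± 0.48 (SE) for OSCA-32 and 0.63 ± 0.48 for OSCA-40 against PBS, and 1.06 ± 0.48 for OSCA-40 against OSCA-32, with a 95% interval from -0.08 to 2.19 (limma adjusted p = 0.839, 0.519 and 0.343). With library totals alone the OSCA-40 difference from PBS turned to -0.80. In rank it stood above 75.1% and 82.0% of protein-coding genes with OSCA-40 and above 54.3% and 52.0% with OSCA-32. The genes most like it over the 8 libraries were Vps16 (r = 0.94), of vesicle sorting to lysosomes, Cmklr1 (0.91), the chemerin receptor, and Dctn1 (0.89), of the dynactin complex. The opposite-strand neighbour Rcbtb2 was listed at 19 and 16 with PBS and 4 and 7 with OSCA-40, and Lpar6 at 6 and 6 and at 2 and 3; the kit keeps strand, but whether the counting used it is not given in the sources used here.

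Of the RB and cell cycle entry list, 12 of 28 genes were tested and none was called in any of the 5 comparisons with limma. Of all tested genes, 0.165% to 6.77% were called in them, so 0 of 12 says little about the list. At an unadjusted p under 0.05 there were 2 with OSCA-40 against PBS, 2 in the 4 against 4 comparison and 0 in the others. The list median was -0.15 with OSCA-32 and -0.16 with OSCA-40, against -0.004 and -0.037 for all tested mouse genes. The highest genes were Rbl1, the RB relative p107, at 24 and 55 with PBS and 18 and 13 with OSCA-40, and E2f7, a repressive E2F factor, at 59 and 53 and at 13 and 13. E2f7 differed from PBS by -0.44 ± 0.179 with OSCA-40 and did not pass (limma adjusted p = 0.219).

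Myc (ENSMUSG00000022346, chromosome 15, 61985391 to 61990374, plus strand) was the lowest member. It was listed at 3 and 1 at week 0, at 3 and 6 with PBS, at 2 and 2 with OSCA-32 and at 0 in both OSCA-40 libraries. Week 0 overlapped both PBS and OSCA-32, both PBS libraries were above both OSCA-32 libraries, and the OSCA-40 libraries were below all others. At 1 or more in the 6 other libraries and 0 in both of OSCA-40 it was 1 of 722 protein-coding genes, 3.91% of the 18457 at 1 or more in those 6. Myc reached 5 in 1 library alone, so it could be tested only with no low-value filter. There it passed for OSCA-40 against PBS (limma adjusted p = 0.0446), where 6.65% of 34607 genes did, and not for OSCA-32 against PBS (adjusted p = 0.885) or between the lines (adjusted p = 0.0921). No fold is given against a group listed at 0.

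None of the 10 tested genes of the 24 on the MYC list was called in the 5 comparisons with limma (1 at an unadjusted p under 0.05 with OSCA-40 against PBS and 0 with OSCA-32). At most 6.77% of all tested genes were called in any of the 5, so 0 of 10 says little about the list. The list median was 0.10 with OSCA-40 and -0.08 with OSCA-32. Npm1, a nucleolar chaperone, was listed at 50 and 57 with PBS, 39 and 47 with OSCA-32 and 15 and 27 for OSCA-40. Ldha, of lactate production, was listed at 27 and 28, 12 and 20, and 8 and 6. Their differences from PBS with OSCA-40 were 0.24 ± 0.274 and -0.32 ± 0.266 and did not pass. Max, the partner with which MYC binds DNA, looked up after values were seen, was at 2 to 6 in all 8 libraries.

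**Figure D3:**
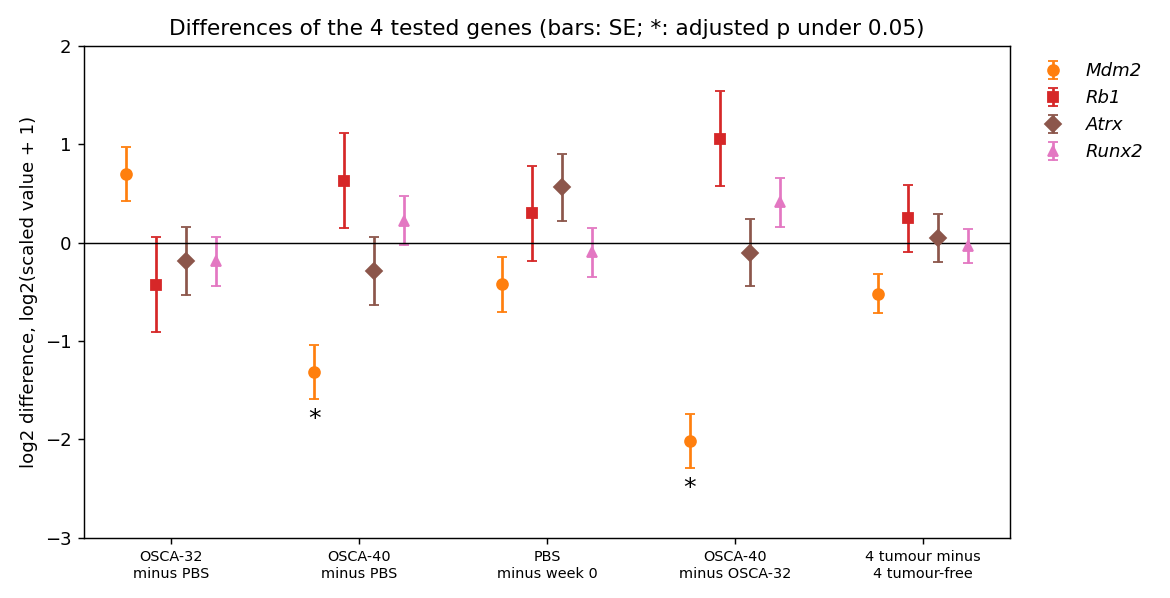
Differences in log2(scaled value + 1) with their SE (vertical axis) for the 4 members that entered the test, in 5 comparisons of the 8 libraries (horizontal axis); asterisks mark a limma adjusted p under 0.05. Mdm2 alone carries asterisks, at -1.31 for OSCA-40 minus PBS and -2.01 for OSCA-40 minus OSCA-32.

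Atrx (ENSMUSG00000031229, chromosome X, 105797615 to 105929403, minus strand), the chromatin remodeller, was the member with the highest values. It was listed at 36 and 19 at week 0, at 44 and 38 with PBS, at 26 and 22 with OSCA-32 and at 14 and 8 for OSCA-40. As deposited the OSCA-40 libraries were lowest, week 0 and OSCA-32 overlapped, and PBS was highest. The share of genes in that order is not given here. Between 88.0% and 95.5% of protein-coding genes were listed lower in each library, so Atrx stood high in rank in each, also where its value was low. Its value was 3.80 to 8.80 times the median protein-coding gene. Relative to the bulk of genes it did not pass in any comparison with limma: -0.18 ± 0.34 (SE) for OSCA-32 and -0.29 ± 0.34 for OSCA-40 against PBS (adjusted p = 0.919 and 0.686), -0.10 ± 0.34 between the lines, 0.56 ± 0.34 for PBS against week 0 and 0.05 ± 0.24 for tumour against tumour-free libraries. The 95% interval of the OSCA-40 difference ran from -1.09 to 0.52. With library totals alone it was called lower with OSCA-40 (-1.85, adjusted p = 0.0022), and the median tested mouse gene as deposited differed by -1.51. Its annotation holds 27 transcripts, up to 10275 bases long, the most and the longest among the members. The genes most like it over the 8 libraries were Myo19 (r = 0.91), a mitochondrial myosin, Ttc17 (0.90) and Dnm1 (0.90), a dynamin.

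None of the 13 tested genes of the 20 on the ATRX, chromatin and telomere list was called in the 5 comparisons with limma (1 at an unadjusted p under 0.05 with OSCA-32 against PBS and 0 with OSCA-40). At most 6.77% of all tested genes were called in any of the 5, so 0 of 13 says little about the list. The sign was positive for 2 of 13 with OSCA-32 and for 2 of 13 with OSCA-40, both against the same PBS libraries. The list medians were -0.18 and -0.17, against -0.004 and -0.037 for all tested mouse genes. The share of all genes with a positive sign is not given here. Pml, Terf1, Terf2 and Smarcal1 reached 10 in tumour-free libraries alone, so the filter favoured genes high there and no common fall is read from the signs. Pot1a, which caps telomere ends, was listed at 54 and 53 with PBS and at 15 and 18 with OSCA-40. Sp100, a component of PML nuclear bodies, was at 29 and 35 and at 14 and 10. Their differences from PBS were -0.05 ± 0.181 and 0.21 ± 0.184. Daxx, the chaperone that works with ATRX, looked up after values were seen, was listed at 5 and 4 at week 0, 10 and 11 with PBS, 2 and 2 with OSCA-32 and 1 and 2 for OSCA-40. It was not called. PBS was above the other 3 groups, but Daxx reached 10 in the PBS libraries alone. It thus entered the test only through the group where it was highest, and nothing is drawn from that height.

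Runx2 (ENSMUSG00000039153, chromosome 17, 44495987 to 44814797, minus strand) differed by at most 2 between the libraries of a group. Its values were 13 and 14 at week 0, 13 and 13 with PBS, 8 and 7 with OSCA-32 and 6 and 4 for OSCA-40. The groups fell in that order as deposited, with week 0 and PBS touching at 13 and the tumour groups apart from them and from each other. All 4 tumour libraries lay below all 4 tumour-free libraries for 29.6% of the 21173 protein-coding genes with any value. After scaling, the tumour and tumour-free libraries overlapped for Runx2. The order followed that of the median protein-coding gene, and 71.9% to 84.9% of such genes were listed lower than Runx2 in each library. Relative to the bulk of genes its difference from PBS was -0.19 ± 0.25 (SE) with OSCA-32 and 0.22 ± 0.25 with OSCA-40 (limma adjusted p = 0.871 and 0.666). The 95% interval with OSCA-40 ran from -0.36 to 0.81. With library totals alone the OSCA-40 difference turned to -1.24. Between the lines it was 0.41 ± 0.25 (limma adjusted p = 0.475). The genes most like it were Slamf6 (r = 0.94), a lymphocyte receptor, Cep162 (0.94) and Tbp (0.92), the TATA-binding protein.

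On the RUNX2 and osteoblast list, 8 of 22 genes were tested and none was called in the 5 comparisons with limma (1 at an unadjusted p under 0.05 with OSCA-40 against PBS and 0 with OSCA-32). At most 6.77% of all tested genes were called in any of the 5, so 0 of 8 says little about the list. The list median was -0.08 with OSCA-32 and -0.29 with OSCA-40. Col1a2, a chain of type I collagen, was listed at 20 and 19 with PBS and at 6 and 7 with OSCA-40, and Phex, an endopeptidase of bone mineralisation, at 14 and 14 and at 7 and 5. Their differences from PBS were 0.06 ± 0.252 and 0.37 ± 0.223. Osteoblast markers were mixed in level. Alpl, the bone alkaline phosphatase, was listed at 16 and 11 with PBS, 9 and 14 with OSCA-32 and 2 and 2 for OSCA-40. Bglap, osteocalcin, was at 13 and 14 with PBS, 13 and 0 with OSCA-32 and 1 and 2 for OSCA-40, so its OSCA-32 libraries disagreed. Neither was called. Sp7, the osteoblast transcription factor osterix, was at 3 to 6 in tumour-free libraries and at 1 to 3 in tumour libraries, and Spp1, osteopontin, at 0 to 4 and 1 to 3. These 4 were named after their values were seen.

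**Figure D4:**
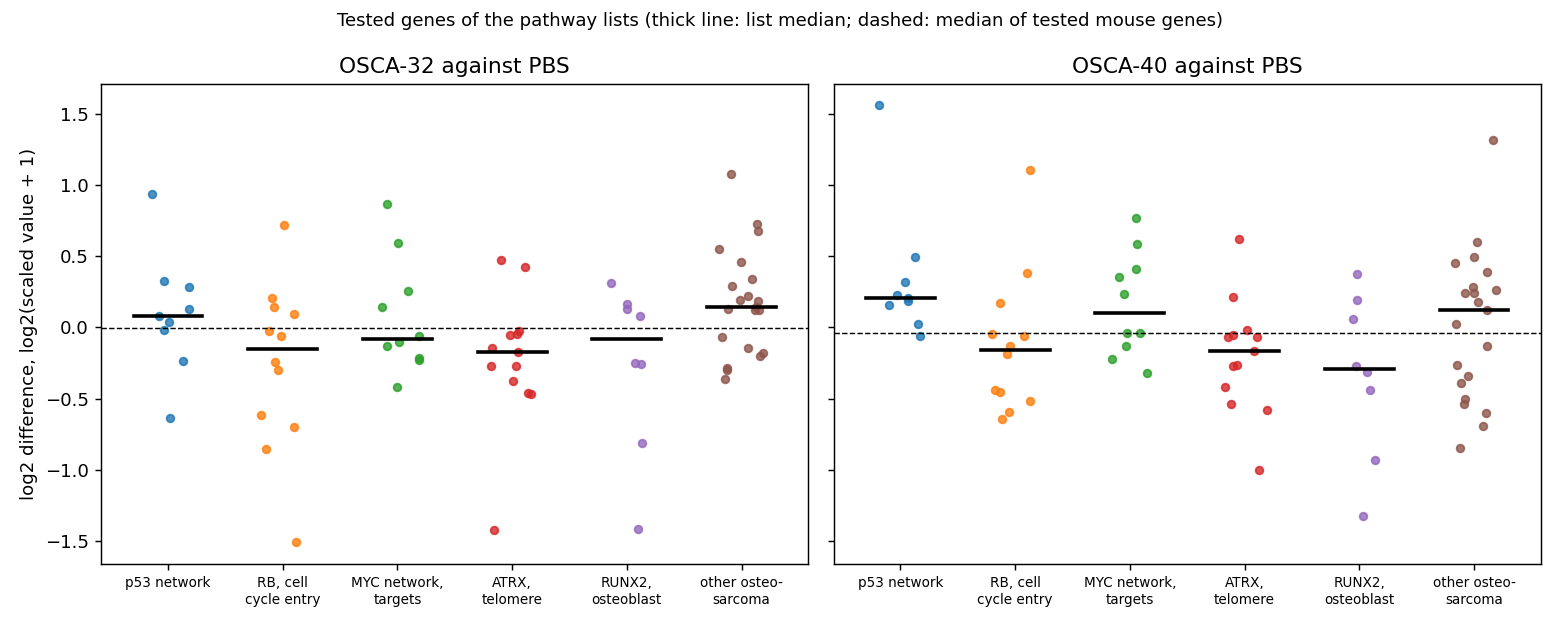
Differences from PBS in log2(scaled value + 1) (vertical axis) of the tested genes of 6 pathway lists (horizontal axis), for OSCA-32 (left) and OSCA-40 (right); each point is 1 gene, thick lines are list medians and the dashed line is the median of tested mouse genes. List medians lie between -0.18 and 0.15 on the left and between -0.29 and 0.21 on the right, and Atm, at 1.56, is the highest point with OSCA-40.

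Other genes mutated or amplified in osteosarcoma were gathered in a list of 34, of which 21 were tested. With OSCA-40 against PBS, 1 was called higher and 1 lower, where 2.93% of tested mouse genes were called higher and 2.31% lower. The list median was 0.12. With OSCA-32 none was called (1 at an unadjusted p under 0.05), with a median of 0.15. Nf2, which encodes the tumour suppressor merlin, was listed at 26 and 22 at week 0, 27 and 32 with PBS, 17 and 15 with OSCA-32 and 5 and 5 for OSCA-40. It fell by 0.85 on the log2 scale with OSCA-40 relative to the bulk of genes (SE 0.186, limma adjusted p = 0.0411). That call was lost without each of the 8 libraries (adjusted p from 0.0548 to 0.252), with a minimum of 5 (0.0521), without the variance trend (0.0714), with the replicate block (0.0729) and with only the groups compared (0.118). The OSCA-40 libraries lay below all others for Nf2 as deposited, where the median tested mouse gene differed from PBS by -1.51. The share of genes in that order is not given here.

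Brca2, which repairs DNA breaks by homologous recombination, was listed at 1828 and 1953 at week 0, 2391 and 2526 with PBS, 1791 and 2051 with OSCA-32 and 1103 and 1038 for OSCA-40. As deposited both OSCA-40 libraries were the lowest, where the median tested mouse gene differed from PBS by -1.51. Relative to the bulk of genes it rose with OSCA-40 against PBS by 0.45 ± 0.067 (SE, limma adjusted p = 0.0077). In tumour against tumour-free libraries it rose by 0.50 ± 0.047 (limma adjusted p = 0.001), where 2.89% of tested mouse genes were called higher. With library totals alone both took the opposite sign, at -1.20 and -0.59. The first was also lost with scaling to the mouse total (adjusted p = 0.0896), with no low-value filter (0.168), without the variance trend (0.176) and without the first PBS library (0.0725), and the second without the variance trend (0.0717). Whether a value this high, against a median protein-coding gene at 5, comes from Brca2 mRNA was not tested. Fanca, of the Fanconi anaemia repair pathway, was listed at 44 and 55 with PBS and at 23 and 16 with OSCA-40, a difference of 0.28 ± 0.183 that did not pass (limma adjusted p = 0.44).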

How the data were processed

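Exosome RNA came from pooled serum (ExoQuick enrichment, SeraMir extraction, SMARTer Stranded library kit for low input, per the labels' protocols). Tools listed, without their settings, are kallisto 0.43.0, Trimmomatic 0.33.0 and FastQC 0.11.5, and builds listed are GRCm38.p5 (mouse) and CanFam3.1 (dog), per the submitters' processing notes, with index and annotation not given in the sources used here. What the authors deposited is treated as a score: the values' near-equal totals behave as TPM made whole, so no count test, counting interval or floor is given.

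Scaling used an unweighted trimmed mean of each library's log ratios, with a week 0 library (replicate 1) as reference (30% of ratios and 5% of levels trimmed at each end), genes at 10 or more in at least 2 libraries were kept (7655 mouse, 217 canine), and limma 3.58.1 (R 4.3.3) was fitted to log2(scaled value + 1) of all 8 libraries with 1 mean per group, 4 residual degrees of freedom and a variance trend. Adjusted p-values are Benjamini-Hochberg over all genes within each of 5 comparisons, called under 0.05. Mdm2, Rb1, Atrx and Runx2 passed the filter. The procedure was also run on simulated data, but the outcome is not given here and no support is drawn from it. Symbols and positions come from GENCODE mouse M21, which matched 31171 of 31300 mouse identifiers.

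The members and lists were chosen with earlier results of these data known. The rule for named genes was: all members; from each list, every called gene and the 2 with the highest mean; and the 3 genes most correlated with each tested member. Alternatives were other scalings, filters and pseudocounts, no variance trend, fits to only the compared groups, a replicate block, and leaving out each library. No library pair was identical: at most 1419 of the 7872 tested genes had equal values.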

Additional observations from a re-analysis of the deposited data

Results flagged for a closer look

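Mdm2 differed between the xenografted lines. The test of the difference itself, OSCA-40 minus OSCA-32, gave -2.01 on the log2 scale (SE 0.275, limma adjusted p = 0.0134, range over leaving out each library 0.0339 to 0.0814), with both OSCA-40 libraries below both OSCA-32 libraries. The deposited values were 1 and 1 against 12 and 11, where the median tested mouse gene differed by -0.95. With 2 libraries a group, such a separation is no further support, and the share of genes with it is not given here. Mouse genes as a whole held 31.6% and 29.3% of the OSCA-40 libraries and 55.3% and 56.7% of the OSCA-32 libraries. With library totals alone Mdm2 is also called, but so are 4617 of the 7872 tested genes, and 0.31% of the called mouse genes are higher. The call was lost with only those groups fitted (limma adjusted p = 0.143). The part of the shift in mouse share in the difference left after scaling was not tested.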

How the results depend on the processing

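With no call among the members for OSCA-32 against PBS or PBS against week 0, each alternative also gave 0. For OSCA-40 against PBS the number of members called, 1 in the fit reported, was 3 with library totals alone, 2 with no low-value filter (Mdm2 and Myc), 0 with a pseudocount of 4, 0 with only the groups compared, 0 with the replicate block and 0 without each library. Between the lines, 1 became 2 with library totals alone, 0 with only the groups compared, and 0 to 1 without each library. For 4 tumour against 4 tumour-free libraries, 0 became 3 with library totals alone and 1 with no low-value filter. With library totals alone the sign turned for Rb1 (-0.80) and Runx2 (-1.24) with OSCA-40 against PBS, for Runx2 between the lines (-0.52), for Rb1 (-0.69) and Atrx (-0.99) in tumour against tumour-free libraries, and for Brca2 (-1.20 and -0.59). In tumour against tumour-free libraries Atrx was also -0.024 with scaling to the mouse total and -0.075 with no filter. Leaving out each library gave ranges that cross 0 for Rb1 with OSCA-32 (-0.86 to 0.005), PBS against week 0 (-0.25 to 0.84) and tumour against tumour-free (-0.025 to 0.522), for Atrx with OSCA-40 (-0.643 to 0.071), between the lines (-0.46 to 0.26) and tumour against tumour-free (-0.18 to 0.27), and for Runx2 with OSCA-40 (-0.018 to 0.46) and tumour against tumour-free (-0.153 to 0.086). The causes were not tested. Replicate 1 deviations correlated between groups at -0.056 to 0.005, so the numbers do not pair the libraries. When only genes listed at 1 or more were counted, each member's median rank over the 8 libraries moved by less than the SD over those libraries, but single ranks moved further: Mdm2 and Trp53 went from 17.2% and 17.5% to 0% in the OSCA-40 libraries, and Rb1 no longer stood above the median gene in 1 OSCA-32 library. Over all genes, OSCA-32 against PBS had 86 calls, which became 1294 with library totals alone, 46 with only the groups compared and 36 to 90 without each library. OSCA-40 against PBS had 533, which became 6695 with library totals, 2303 with no filter, 313 without the variance trend, 312 with only the groups compared and 270 to 548 without each library. PBS against week 0 had 13, which became 2 with no filter, 8 with a minimum of 5, 5 without the trend, 6 with the replicate block, 2 with only the groups compared and 2 to 7 without each library. The lines differed in 215, which became 4617 with library totals, 1726 with no filter, 113 without the trend, 143 with the replicate block, 80 with only the groups compared and 69 to 156 without each library. Tumour against tumour-free libraries had 478, which became 6545 with library totals, 1731 with no filter, 266 without the trend and 266 to 512 without each library. Of called mouse genes, 69%, 55.9%, 44.4%, 46.4% and 61.6% were higher in these comparisons, in that order, and with library totals alone 1.79%, 0.23%, 62.5%, 0.31% and 0.424%. Scaling to the mouse total lowered the share of called mouse genes that were higher from 55.9% to 32.4% with OSCA-40, from 46.4% to 17.2% between the lines and from 61.6% to 48.0% in tumour libraries.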
